A study of Mus musculus with 8 samples.

Results

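Glutathione is the main low molecular weight thiol of animal cells, and its supply depends on cysteine. Cystine, the oxidised dimer of cysteine, enters the cell in exchange for glutamate through system xc-, a pair of a light chain that carries the substrate (Slc7a11, xCT) and a heavy chain that brings the light chain to the plasma membrane (Slc3a2, the CD98 heavy chain). Glutamate-cysteine ligase, made of a catalytic subunit (Gclc) and a modifier subunit (Gclm), then joins cysteine to glutamate, and glutathione synthetase (Gss) adds glycine. Gpx1 and Gpx4 are glutathione peroxidases that contain selenocysteine: Gpx1 reduces hydrogen peroxide in the cytosol and mitochondria, and Gpx4 reduces lipid hydroperoxides in membranes and so opposes ferroptosis. Glutathione reductase (Gsr) returns the oxidised product to glutathione with NADPH.

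These 8 genes were chosen by name, with earlier results of these data known, and each of the 8 symbols matched 1 row of the 27679 genes in the table. They were followed in 8 RNA-seq libraries of megakaryocytes, the polyploid cells of the marrow whose fragments are platelets. Both groups came from bone marrow of wild-type C57BL/6 mice, from which lineage-positive cells had been removed. The cells were kept for 3 days in liquid medium (4 libraries) or in 2% methylcellulose, a soft hydrogel whose Young modulus was 30 to 60 Pa (4 libraries), and in both groups the larger, mature cells were then isolated on a BSA gradient. The series contrasts mechanical confinement in the soft gel with growth in liquid.

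Library totals ran from 27012172 to 49281611 counts. Each member had at least 400 reads in every library, and all 8 were among the 13845 genes with enough reads to test. The cells carried megakaryocyte markers: all 16 genes of that list were tested, and their summed level was 27480 to 39960 CPM (reads as a share of the library, scaled by TMM) in hydrogel and 33760 to 55020 CPM in liquid, with 12 of 16 lower in hydrogel. Of the 20 macrophage markers 19 were tested, with 15 higher and 0 lower, and a summed level of 4136 to 8947 CPM in hydrogel against 1126 to 2437 CPM in liquid; 0 of the 20 were at 0 in every library. Of all tested genes 15.1% were higher and 14.1% lower, and the counts of markers are to be read beside these shares. Markers of other lineages held calls as well. Of the mast cell and basophil markers 0 of 8 tested were higher and 6 lower (84.3 to 204 CPM summed in hydrogel, 144 to 604 in liquid), of the dendritic cell markers 1 of 6 higher and 5 lower (17.0 to 20.7 and 29.9 to 53.5 CPM), of the erythroid markers 0 of 6 higher and 2 lower (84.9 to 158 and 118 to 182 CPM) and of the neutrophil markers 2 of 10 higher and 1 lower (419 to 975 and 415 to 1797 CPM). The part of these lineages in the results below was not tested. A pair of libraries lay nearest the opposite group on the macrophage sum, hydrogel 1 with 4136 CPM and liquid 2 with 2437 CPM. In such bulk libraries a change in the share of a cell type and a change in RNA per cell cannot be told apart. The macrophage score named below is the mean centred log2 CPM of these markers. For the 8 genes and the list genes named by their calls, the value with it as a term in the fit, or without those libraries, is given where it ends the call. Of all genes tested in each fit, 29.3% were called in the main fit, 4.89% with the score and 40.6% without those libraries. Most called genes thus lose the call with the score. Culture accounts for 81.3% of the variance of the score, so that fit separates the effects poorly. Those libraries were picked on these data as nearest the other group, so a smaller p without them is no separate support.

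Of the 8 genes, 5 were higher in hydrogel, 1 was lower and 2 did not pass (edgeR's quasi-likelihood test, Benjamini-Hochberg adjusted p under 0.05 over all tested genes). Slc7a11 rose the most, 6.25-fold, followed by Gpx1 at 2.89-fold, Slc3a2 at 1.56-fold, Gss at 1.48-fold and Gsr at 1.18-fold, while Gpx4 fell 1.45-fold. Both subunits of glutamate-cysteine ligase missed the threshold. Across all tested genes 29.3% were called, 15.1% higher and 14.1% lower, a split that upper-quartile scaling changed to 1755 higher and 2492 lower from 2096 and 1956. The median log2 change was 0.40 over the 8 genes and −0.01 over all tested genes. For 7 of the 8 genes the hydrogel and liquid libraries did not overlap, which held for 28.4% of tested genes. As the 8 genes were chosen with earlier results of these data known, these comparisons with all genes are descriptive, and enrichment was not tested.

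**Figure D1:**
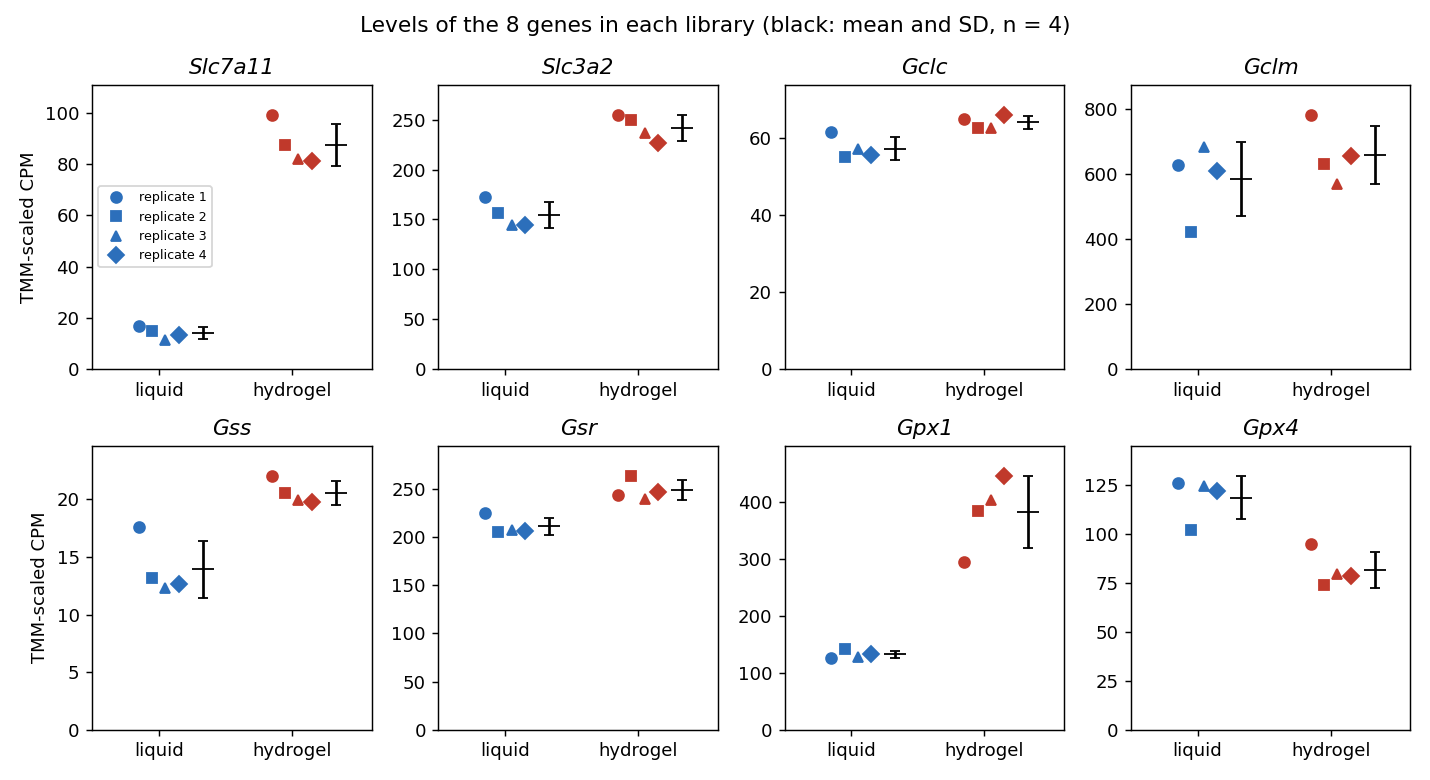
TMM-scaled CPM of the 8 genes (vertical axes, from 0) in the liquid (blue) and hydrogel (red) libraries, with a marker shape per replicate number and the mean and SD in black (n = 4). Slc7a11 lies between 81.2 and 99.1 CPM in hydrogel and between 11.4 and 16.7 CPM in liquid, Gpx4 is lower in every hydrogel library, and only for Gclm do the groups overlap.

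The promoters of Slc7a11 and Gclm are shown because Slc7a11 had the largest rise of the 8 genes and Gclm was not called, and because each holds a match to a different stress element. The windows run from 250 bases before to 50 bases after the RefSeq start site (RefSeq, GRCm38.p6, which is not the build of the counts) and are written 5′ to 3′ on the gene's strand. Capitals mark matches to TGATGNAA, the C/EBP-ATF element bound by ATF4, in Slc7a11 (chr3:50443564-50443863, minus strand), and to TGACNNNGC, the core of the antioxidant response element bound by NRF2 and its relatives, in Gclm (chr3:122245307-122245606, plus strand).
Slc7a11: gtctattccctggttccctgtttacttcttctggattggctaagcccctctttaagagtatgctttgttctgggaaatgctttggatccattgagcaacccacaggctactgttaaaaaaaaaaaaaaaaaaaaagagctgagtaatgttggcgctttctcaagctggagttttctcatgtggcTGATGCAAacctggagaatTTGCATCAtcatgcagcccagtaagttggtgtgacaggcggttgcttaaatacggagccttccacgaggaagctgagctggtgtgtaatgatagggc
Gclm: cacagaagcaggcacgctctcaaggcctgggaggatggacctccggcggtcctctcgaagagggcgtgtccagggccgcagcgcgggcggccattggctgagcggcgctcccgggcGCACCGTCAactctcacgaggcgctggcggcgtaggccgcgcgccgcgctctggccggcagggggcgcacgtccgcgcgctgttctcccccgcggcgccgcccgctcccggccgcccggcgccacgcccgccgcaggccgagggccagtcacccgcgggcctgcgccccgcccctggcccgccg
Both motifs were searched on both strands, and no matches overlapped. The Slc7a11 window held 2 C/EBP-ATF matches, TGATGCAA beginning 66 bases before the start site and TTGCATCA, on the other strand, beginning 47 bases before it. Of all 32851 promoter windows in the table, 3.97% held at least 1 such match and 0.07% at least 2. The Gclm window held 1 antioxidant core, GCACCGTCA, on the strand opposite the gene and beginning 134 bases before the start site; 12.4% of all windows held that motif. Of the 8 genes, 6 had a window in the table, 9 windows in all, and those of Slc3a2, Gss, Gpx1 and Gpx4 held neither motif. A match is a string of letters in a window and says nothing about binding in these cells.

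Slc7a11 (ENSMUSG00000027737) stood at 99.1, 87.7, 82.2 and 81.2 CPM in hydrogel replicates 1 to 4 and at 16.7, 14.96, 11.4 and 13.1 CPM in liquid replicates 1 to 4. Every hydrogel library was far above every liquid library, and both groups were tight. The mean rose from 14.1 ± 2.28 to 87.6 ± 8.22 CPM (SD, n = 4 each), a log2 change of 2.64 ± 0.12 (SE; edgeR adjusted p = 1.46e-05). Among the 13845 tested genes it ranked 1 by p and 154 by size of rise. Hydrogel 1, with the lowest macrophage marker sum of the hydrogel group, had the highest Slc7a11. In the liquid group, liquid 3 had both the lowest marker sum (1126 CPM) and the lowest Slc7a11. The highest liquid value was in liquid 1, at a sum of 1264 CPM. A relation between Slc7a11 and macrophage content within the groups was not tested. With the macrophage score as a term in the fit the log2 change was 2.79 (edgeR adjusted p = 8.56e-05), and without hydrogel 1 and liquid 2 it was 2.63 (8.93e-09).

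Slc3a2 (ENSMUSG00000010095), the heavy chain, had 254, 250, 237 and 226 CPM in hydrogel and 172, 157, 145 and 145 CPM in liquid, again without overlap. Its mean rose from 155 ± 13.1 to 242 ± 12.6 CPM, a log2 change of 0.65 ± 0.08 (edgeR adjusted p = 0.000501). The log2 change was 0.75 with the macrophage score as a term (edgeR adjusted p = 0.0204). The light chain therefore changed more than its partner in the same libraries. The ratio of Slc7a11 to Slc3a2 reads was 0.347 to 0.389 in hydrogel and 0.0790 to 0.0969 in liquid, a 4.00-fold difference (log2 difference 2.00, exact permutation test over the 8 libraries, two-sided p = 0.0286, which is the smallest the 70 assignments allow, and 0.0381 adjusted over the 4 ratios tested). Without any 1 hydrogel library the adjusted exact permutation p was 0.0571, with log2 differences of 1.97 to 2.02.

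Slc3a2 also serves other light chains, which carry large neutral or cationic amino acids. Slc7a7, the y+LAT light chain for cationic amino acids, rose 2.22-fold from 4.06 ± 0.604 to 9.004 ± 1.35 CPM (edgeR adjusted p = 0.000919), a call lost with the macrophage term (0.259). Slc7a5 (LAT1), the main carrier of large neutral amino acids, rose 1.32-fold from 217 ± 24.3 to 286 ± 43.6 CPM with overlapping libraries (edgeR adjusted p = 0.0321). That call was lost without hydrogel 1 or 2 or liquid 3 or 4 (edgeR adjusted p of 0.0663 to 0.0919), with upper-quartile scaling (0.0679) and with the macrophage term (0.237). Slc7a6 had a log2 change of −0.20 ± 0.07 and Slc7a8 one of 0.46 ± 0.22, neither of which passed (edgeR adjusted p = 0.0573 and 0.145); Slc7a8 was called without hydrogel 1 (0.0329) or without liquid 2 (0.0185), and Slc7a6 without liquid 3 (0.0355), with upper-quartile scaling (0.0334), with a filter of 1 CPM in 4 libraries (0.0453) and with a replicate block (0.0454). With the macrophage term the log2 change of Slc7a8 turned to −0.85 (0.0403), and without both hydrogel 1 and liquid 2 it was 0.83 (7.26e-05). In a comparison added after the values were seen, Slc7a11 made up, per kilobase of exon, 6.16 ± 0.391% of the summed light chain level in hydrogel and 1.30 ± 0.0937% in liquid, against 75.1 ± 3.29% and 75.9 ± 1.32% for Slc7a5 (SD, n = 4). These shares depend on the length used, here the union of exons, which for Slc7a11 spans 13922 bases against 9223 for its longest transcript.

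The ligase subunits were the least changed of the synthesis genes. Gclc (ENSMUSG00000032350) had 65.0, 62.6, 62.6 and 65.9 CPM in hydrogel and 61.5, 54.9, 57.0 and 55.5 CPM in liquid. The groups did not overlap, with means of 64.0 ± 1.67 and 57.2 ± 2.97 CPM. Its log2 change of 0.16 ± 0.06 missed the threshold (edgeR adjusted p = 0.0686), and it passed without liquid 1 (0.0442) and with library totals alone (0.0337). Gclm (ENSMUSG00000028124) had 779, 629, 569 and 655 CPM in hydrogel and 627, 420, 681 and 608 CPM in liquid, so its groups overlapped, with the highest value in hydrogel 1 and the lowest in liquid 2. Its log2 change was 0.17 ± 0.15 (edgeR adjusted p = 0.430). Without those libraries the log2 change was −0.03 (0.778), and with the macrophage score as a term it was 1.05 (0.00536). The ratio of Gclm to Gclc reads was 10.3 ± 1.23 in hydrogel and 10.2 ± 1.84 in liquid, a log2 difference of 0.02 (exact permutation p = 0.971); it was −0.11 without liquid 2, −0.05 without hydrogel 1 and −0.19 without both.

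Gss (ENSMUSG00000027610), of the last step of synthesis, had 22.0, 20.5, 19.9 and 19.8 CPM in hydrogel and 17.6, 13.2, 12.3 and 12.7 CPM in liquid. All hydrogel libraries were higher, and liquid 1 stood above the other liquid libraries. The log2 change was 0.56 ± 0.12 (edgeR adjusted p = 0.00702), and 0.86 with the macrophage score as a term, where it was not called (0.0721). In the annotation Gss overlaps Acss2 on the opposite strand, which had 1660 to 4934 counts per library against 400 to 804 for Gss. The libraries are stranded per the labels, but the strand setting of the counting is not given in the sources used here, so Gss is uncertain to that extent. The ratio of Gclc to Gss reads fell from 4.17 ± 0.490 to 3.12 ± 0.159, a log2 difference of −0.41 (exact permutation p = 0.0286, 0.0381 adjusted over the 4 ratios). Without any 1 hydrogel library the adjusted exact permutation p was 0.0762, so this difference did not pass there.

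Gsr (ENSMUSG00000031584) had 244, 263, 240 and 247 CPM in hydrogel and 225, 205, 208 and 206 CPM in liquid. The difference was small beside a small spread, with means of 248 ± 10.4 and 211 ± 9.24 CPM and no overlap. Its log2 change of 0.24 ± 0.06 passed (edgeR adjusted p = 0.0196), and this was the least stable of the 6 calls. The call was lost without hydrogel 2 (0.0742), hydrogel 4 (0.0508) or liquid 4 (0.0589), with upper-quartile scaling (0.0652), without a low-count filter (0.0712) and with the macrophage score as a term (0.293).

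The peroxidases went in opposite directions. Gpx1 (ENSMUSG00000063856) had 295, 383, 402 and 445 CPM in hydrogel and 126, 141, 128 and 133 CPM in liquid. It was higher in every hydrogel library, with the lowest hydrogel value in hydrogel 1 and the highest liquid value in liquid 2. The mean rose from 132 ± 6.404 to 381 ± 63.1 CPM, a log2 change of 1.53 ± 0.12 (edgeR adjusted p = 0.000113), which ranked 14 by p among the tested genes. With the macrophage score as a term the log2 change was 1.0 (edgeR adjusted p = 0.0108), and without hydrogel 1 and liquid 2 it was 1.68 (7.56e-09). Those libraries were the nearest to the other group for Gpx1, so the smaller p is no separate support.

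Gpx4 (ENSMUSG00000075706) had 94.9, 73.8, 79.3 and 78.3 CPM in hydrogel and 126, 102, 124 and 122 CPM in liquid. It was lower in every hydrogel library, and the libraries closest to the other group were again hydrogel 1 and liquid 2. The mean fell from 119 ± 10.99 to 81.6 ± 9.21 CPM, a log2 change of −0.54 ± 0.10 (edgeR adjusted p = 0.00259). With the macrophage score as a term the log2 change was −0.03 (edgeR adjusted p = 0.929), and without hydrogel 1 and liquid 2 it was −0.67 (5.93e-06). The omission removes the nearest libraries here too, so its smaller p is no separate support. The part of the macrophage and megakaryocyte content in the Gpx4 difference was not tested further. A processed pseudogene found by its name, Gpx4-ps2, had 68 to 233 counts per library against 2174 to 5653 for Gpx4. Reads could be shared with it or lost to it, and this was not tested.

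Because both peroxidases were read in the same libraries, their ratio does not depend on scaling. Gpx1 had 3.11, 5.19, 5.07 and 5.67 reads per Gpx4 read in hydrogel and 1.0, 1.37, 1.03 and 1.09 in liquid. The hydrogel ratio was 4.16-fold higher (log2 difference 2.06, exact permutation p = 0.0286, 0.0381 adjusted over the 4 ratios and 0.0571 without any 1 hydrogel library).

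**Figure D2:**
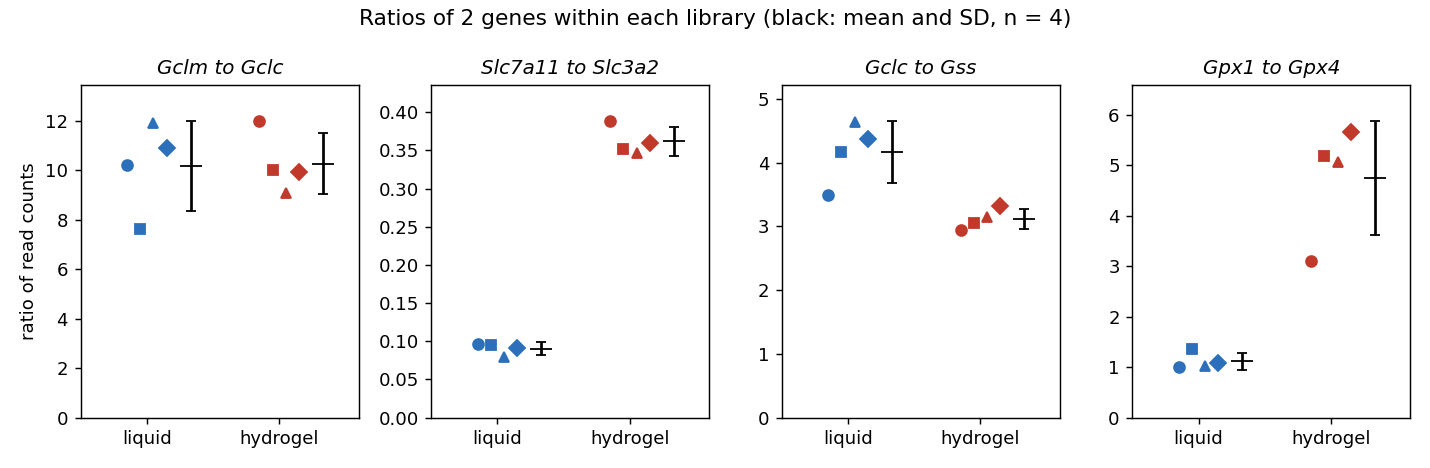
Ratios of read counts of 2 genes within each library (vertical axes, from 0; no length correction) for liquid (blue) and hydrogel (red), with the mean and SD in black (n = 4). The Gclm to Gclc ratio overlaps between groups, Slc7a11 to Slc3a2 and Gpx1 to Gpx4 are higher in every hydrogel library, and Gclc to Gss is lower in each hydrogel library.

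**Figure D3:**
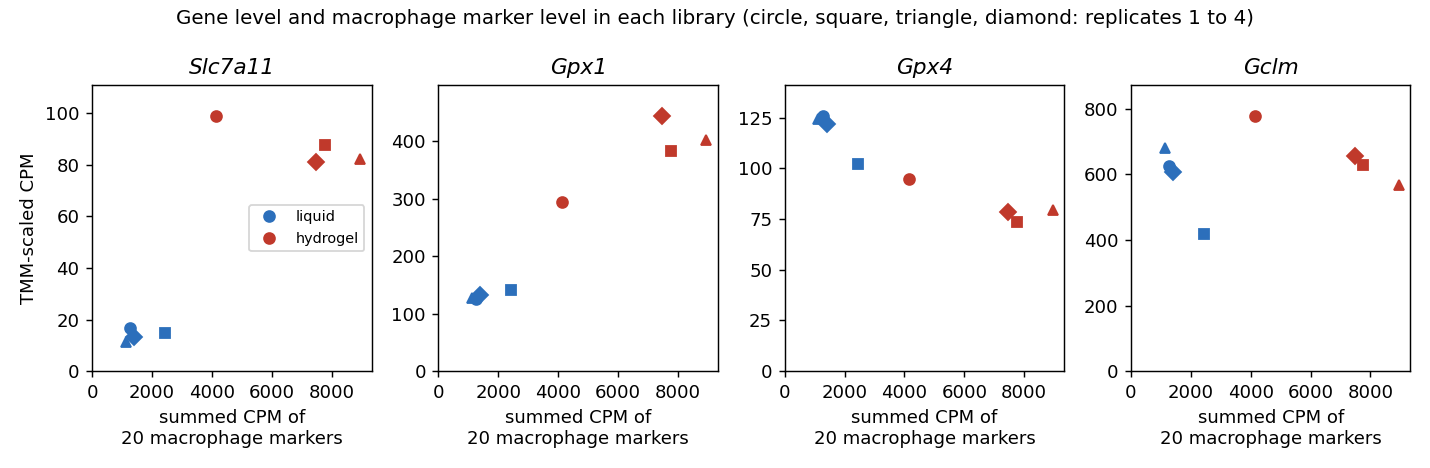
CPM of 4 of the genes (vertical axes) against the summed CPM of the 20 macrophage markers (horizontal axes) in each library, liquid in blue and hydrogel in red. Hydrogel 1, at 4136 CPM of markers, is the highest hydrogel library for Slc7a11, Gpx4 and Gclm and the lowest for Gpx1.

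Levels of different genes can be compared only per length. Per kilobase of annotated exon (union over transcripts, GENCODE M21), Gpx1 was the most abundant in hydrogel at 264 ± 43.8 CPM per kb, followed by Gclm at 105 ± 14.1, Gsr at 90.2 ± 3.78, Slc3a2 at 68.5 ± 3.57, Gpx4 at 47.3 ± 5.34, Gclc at 17.0 ± 0.444, Slc7a11 at 6.29 ± 0.590 and Gss at 3.48 ± 0.172. The ranges of Gclm (90.4 to 124) and Gsr (87.0 to 95.6) overlapped in hydrogel, and the other neighbours did not. In liquid, Gclm at 92.8 ± 18.1 and Gpx1 at 91.6 ± 4.44 CPM per kb could not be ordered, as their ranges overlapped, and Gsr stood at 76.6 ± 3.36, within the range of Gclm. Gpx4 at 68.8 ± 6.38 CPM per kb overlapped the range of Gclm there, and lay below that of Gsr. Slc7a11, at 1.01 ± 0.164 CPM per kb, was the lowest of the 8 in liquid and lay below Gss at 2.36 ± 0.417; in hydrogel it lay above Gss. The mean levels and the order of some genes depend on the length used. With the longest transcript, Gpx4 in liquid came to 119 CPM per kb (103 to 127), which lay above Gsr (76.7 to 84.1). Gclm came to 104.5 (75.1 to 122), again overlapping the range of Gpx4. In hydrogel the ranges of Slc3a2 (80.5 to 90.5), Gpx4 (74.1 to 95.4) and Gsr (89.7 to 98.5) overlapped with that length. The union of exons of Slc7a11 spans 13922 bases against 9223 for its longest transcript.

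Per kilobase, the modifier subunit exceeded the catalytic one 6.14 ± 0.734-fold in hydrogel and 6.10 ± 1.10-fold in liquid, and Slc7a11 reached 0.0916 ± 0.00489 of the Slc3a2 level in hydrogel and 0.0229 ± 0.00205 in liquid.

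The 11 other lists of the pathway and its surroundings held 109 genes, of which 96 were tested, 28 were higher and 9 lower in hydrogel, or 29.2% and 9.38% of those tested, beside 15.1% and 14.1% of all genes. With upper-quartile scaling 22 were higher and 14 lower, without both hydrogel 1 and liquid 2 the counts were 32 and 15, and with the macrophage term they were 13 and 2. These settings called 30.7%, 40.6% and 4.89% of all genes tested in them, against 29.3% in the main fit. The counts include calls of genes not called in the comparison of all 8 libraries. The median log2 change over the 96 was 0.09. The lists too were chosen with earlier results of these data known, and enrichment was not tested. Among the suppliers of NADPH, on which glutathione reductase depends, 4 of 9 tested rose and 1 fell (median 0.18). G6pdx, the entry enzyme of the pentose phosphate pathway, stood at 338, 343, 340 and 337 CPM in hydrogel and at 230, 217, 255 and 226 CPM in liquid, a 1.47-fold rise without overlap (edgeR adjusted p = 0.000566). Pgd, the next NADPH-producing enzyme of that pathway, rose 1.54-fold and malic enzyme Me1 1.51-fold (edgeR adjusted p = 0.000935 and 0.0115); with the macrophage term Pgd was not called (0.154). Outside the naming rule, and chosen after their values were seen, Nadk, which phosphorylates NAD, rose 1.22-fold and Pgls, of the pentose phosphate pathway, fell 1.20-fold (edgeR adjusted p = 0.0192 and 0.0183). Nadk did not pass without hydrogel 2, 3 or 4 or liquid 4 (0.0515 to 0.0635) or with the macrophage term (0.987), and Pgls not without hydrogel 3 (0.0610), without both hydrogel 1 and liquid 2 (0.0746), with library totals alone (0.151) or with the macrophage term (0.0978).

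Glutathione transporters had 2 of 4 higher and 0 lower, where 15.1% of all tested genes were higher and 14.1% lower. Abcc1 (MRP1), which exports glutathione and its conjugates, had 395, 325, 298 and 332 CPM in hydrogel and 191, 186, 205 and 190 CPM in liquid, a 1.75-fold rise without overlap (edgeR adjusted p = 0.000384; 0.00236 with the macrophage term). Slc25a39, the mitochondrial glutathione importer, rose 1.33-fold (edgeR adjusted p = 0.00941), and not with the macrophage term (0.770). In glutathione turnover 1 of 9 tested rose and 1 fell. The riser was the aminopeptidase Anpep, a myeloid surface marker, at 332 ± 144 CPM in hydrogel and 35.3 ± 22.1 CPM in liquid; its log2 change of 3.24 became 0.69 with the macrophage term (edgeR adjusted p = 0.382) and 3.98 without hydrogel 1 and liquid 2, with a range of 2.99 to 3.73 over single omissions. Chac2, which degrades glutathione, fell 1.39-fold with overlapping libraries (edgeR adjusted p = 0.0215), and was not called without hydrogel 2 or 4 or liquid 3 or 4 (0.0543 to 0.0710) or with the macrophage term (0.524).

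Of the cysteine supply genes 2 of 7 tested rose and 2 fell, beside 15.1% higher and 14.1% lower of all tested genes. Csad, which uses cysteine products for taurine, fell 1.62-fold and Mat2a, which makes S-adenosylmethionine, 1.18-fold, while the transaminase Got1 rose 1.25-fold (edgeR adjusted p = 0.00167, 0.0249 and 0.0189). With the macrophage term none of these 3 was called (0.471 to 0.931). Mat2a also lost its call without hydrogel 2, 3 or 4, without liquid 1 or 4, with library totals alone and without a low-count filter (0.0600 to 0.116), and Got1 without hydrogel 2 (0.0608). The remaining riser, Mpst, which takes sulphur from mercaptopyruvate and was named after its value was seen, rose 1.22-fold (edgeR adjusted p = 0.0349); it did not pass without hydrogel 2, 3 or 4 or liquid 1 or 4 (0.0723 to 0.103), with upper-quartile scaling (0.0620), without a low-count filter (0.0919) or with the macrophage term (0.852).

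Glutathione transferases had 4 of 19 tested higher and 1 lower, with a median log2 change of 0.00, beside 15.1% higher and 14.1% lower of all tested genes. Without both hydrogel 1 and liquid 2 the counts were 6 and 4, where 40.6% of all tested genes were called. With the macrophage term they were 2 and 0, where 4.89% were called, and none of the 2 is a gene named here. Gstm1 went from 20.7 ± 9.15 to 103 ± 35.4 CPM, microsomal Mgst1 from 7.64 ± 3.14 to 30.8 ± 8.50 CPM and Gsta3 from 0.432 ± 0.0829 to 2.76 ± 0.886 CPM (edgeR adjusted p of 0.000408 to 0.00124). Gstm1 and Mgst1 were lowest among hydrogel libraries in hydrogel 1 and highest among liquid libraries in liquid 2, and none of the 3 was called with the macrophage term (0.192 to 0.605). Also named after their values were seen are Hpgds, a prostaglandin D synthase, which rose 3.27-fold, and Mgst3, which fell 1.46-fold (edgeR adjusted p = 0.00402 and 0.0163). With the macrophage term neither was called (0.780 and 0.870), and Mgst3 was not called without hydrogel 2 (0.0523). Of the other peroxidases 1 of 3 tested rose. This was the secreted Gpx3, at 17.6 to 30.3 CPM in hydrogel and 6.95 to 23.9 CPM in liquid (edgeR adjusted p = 0.0486). It did not pass without hydrogel 2, 3 or 4 or liquid 1, 3 or 4 (0.0954 to 0.127), with upper-quartile scaling (0.0566) or with library totals alone (0.0632), and with the macrophage term its log2 change turned from 1.0 to −0.80 (0.157). Leaving out liquid 2 gave 1.48, and leaving out hydrogel 1 as well gave 1.64. Of the glutaredoxins and glyoxalases 1 of 7 changed, the glyoxalase Hagh, which fell 1.58-fold (edgeR adjusted p = 0.00218; 0.875 with the macrophage term).

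Selenoprotein synthesis, needed for both Gpx1 and Gpx4, had 1 of 9 higher and 1 lower with a median log2 change of 0.03. That is near the 15.1% higher and 14.1% lower of all tested genes. Scly, which recovers selenium from selenocysteine, had 56.0 to 58.6 CPM in hydrogel and 36.3 to 44.8 CPM in liquid, a 1.36-fold rise (edgeR adjusted p = 0.00194). Pstk, a kinase that acts on the selenocysteine transfer RNA, fell 1.30-fold (edgeR adjusted p = 0.0347), a call lost without any of hydrogel 1, 2 or 3 or liquid 1 or 4 (0.0744 to 0.0984), with library totals alone (0.104), without a low-count filter (0.0515) and with the macrophage term (0.427).

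Of the 12 regulators, most of them transcription factors that act on these genes, 4 were higher and 1 was lower, beside 15.1% and 14.1% of all tested genes. Atf4, which activates Slc7a11 in amino acid shortage, had 268 to 277 CPM in hydrogel and 217 to 252 CPM in liquid, a 1.17-fold rise (edgeR adjusted p = 0.0282) that was lost in every single omission except liquid 2 (0.0515 to 0.0838), with upper-quartile scaling (0.0888), without a low-count filter (0.0856) and with the macrophage term (0.833). Atf3, a stress-induced factor downstream of Atf4, rose from 16.02 ± 5.06 to 69.5 ± 21.8 CPM (edgeR adjusted p = 0.000749; 0.231 with the macrophage term). Nfe2l2, which encodes NRF2, had a log2 change of 0.25 ± 0.13 and did not pass (edgeR adjusted p = 0.176), though it did without liquid 3 (0.0472), with library totals alone (0.0347) and with the macrophage term (0.0169). Its inhibitor Keap1 (log2 change −0.15 ± 0.06) did not pass either (edgeR adjusted p = 0.0978), except without liquid 4 (0.0480) and with upper-quartile scaling (0.0368). The repressor Bach1 had 149 to 218 CPM in hydrogel and 131 to 228 CPM in liquid (edgeR adjusted p = 0.907), with a log2 change of −0.03 that was 1.01 with the macrophage term (0.00714). Nfe2l1 rose 1.20-fold (edgeR adjusted p = 0.0131), and the megakaryocyte factor Nfe2 fell 1.46-fold with overlapping libraries (0.0206), a call lost without hydrogel 2, 3 or 4 or liquid 1 or 3 (0.0515 to 0.0677). Trib3, a target of Atf4 that is outside the naming rule, rose 2.38-fold (edgeR adjusted p = 0.0446), and did not pass without hydrogel 1, 2 or 3 or liquid 2, 3 or 4 (0.0579 to 0.120), without both hydrogel 1 and liquid 2 (0.0761), with upper-quartile scaling (0.0507), in limma-voom (0.0649) or after thinning (0.0516); its log2 change of 1.25 was 0.67 without hydrogel 1 and 3.0 with the macrophage term. Also outside the naming rule, Ddit3 of the same list and Chac1 of glutathione turnover did not pass. Their log2 changes were 0.30 ± 0.17 and 0.34 ± 0.17 (edgeR adjusted p = 0.222 and 0.149). Whether targets of Atf4 changed as a set was not tested. With the macrophage term Nfe2 was not called and its log2 change turned from −0.54 to 0.32 (edgeR adjusted p = 0.250), and Nfe2l1 was not called (0.594).

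**Figure D4:**
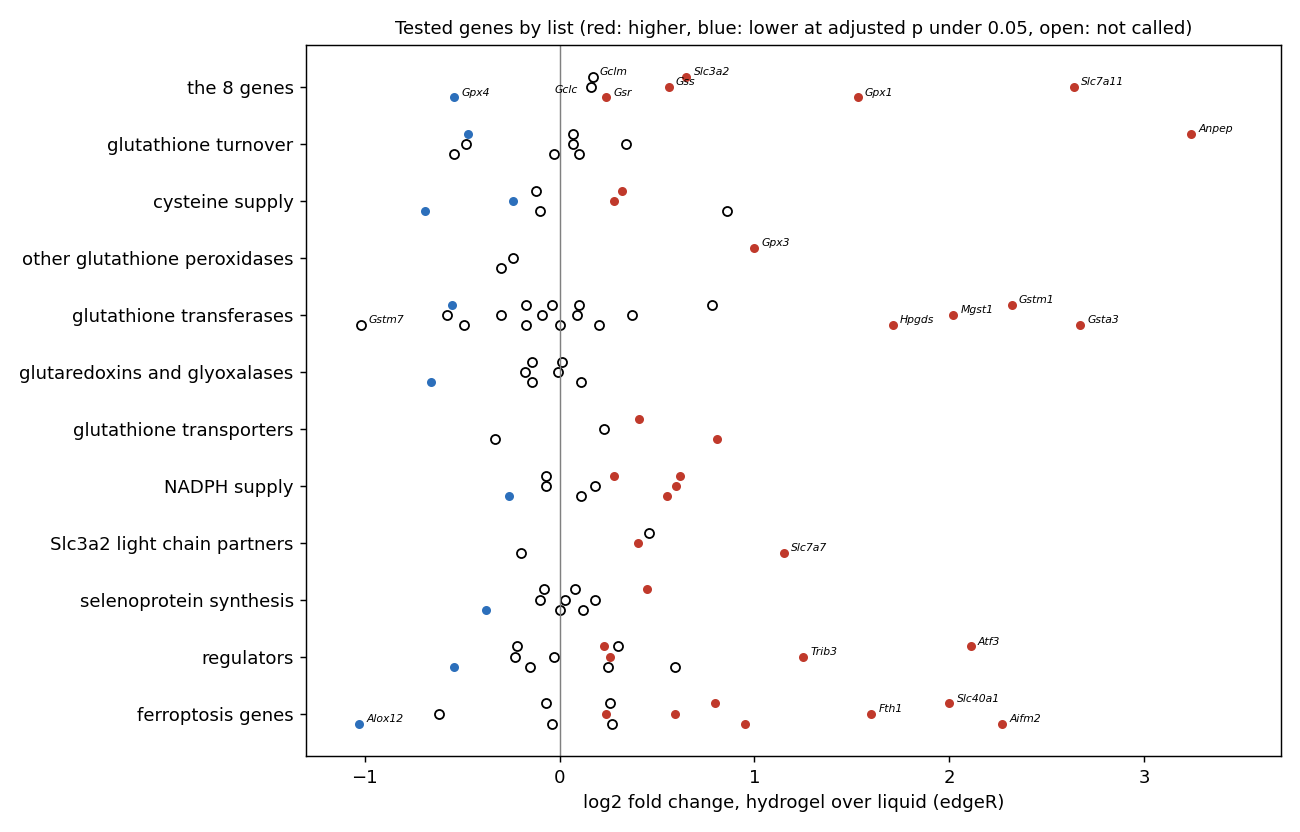
Log2 fold change of hydrogel over liquid (horizontal axis) for each tested gene, by list (vertical axis), with genes called higher in red, called lower in blue and not called open; the vertical offset within a list only separates points, and the 8 genes and those at a log2 change of 1 or more in size are named. The 8 genes span −0.54 (Gpx4) to 2.64 (Slc7a11), and calls in both directions occur in most lists.

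The genes whose profiles over the 8 libraries were most like each member were found among 8339 other genes of at least 10 CPM, by the root mean square difference of log2 CPM after centring. Slc7a11 had no close neighbour by this measure, in which genes with large changes tend to lie far from others. The nearest were the cyclin gene Ccnd1, with a root mean square difference of 0.386, and Tnfaip2, an inflammatory response gene, at 0.423. For Gpx1 the nearest were the ferritin heavy chain gene Fth1 (0.122) and the myeloid lectin gene Clec4d (0.127), and for Slc3a2 the neutral amino acid carrier gene Slc38a1 (0.073) and the tetraspanin gene Cd63 (0.081). Gpx4 lay nearest to the glycosyltransferase gene Galnt1 (0.043) and the Arp2/3 subunit gene Arpc1a (0.051), and Gclm to the exchanger gene Slc24a5 (0.075) and Abhd2 (0.090). Those of Gss were Fam92a (0.1) and Spred1 (0.102), those of Gsr Hectd3 and Ddx24 (both 0.032), and those of Gclc Ints12 (0.023) and the mitochondrial malic enzyme gene Me2 (0.032). A small difference is easily reached by genes that vary little, and of these 16 genes 3 were also among the nearest 2 by the largest Pearson correlation. These genes were chosen on the same 8 libraries, so their own differences between the cultures are no separate support for a shared pattern. That of Fth1 is given below because it is also in the list of lipid peroxidation and iron genes. Log2 changes of Arpc1a, Slc24a5 and Abhd2 are given below only where they turned between settings.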

How the data were processed

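RNA was measured in 4 hydrogel and 4 liquid cultures, which the series describes as independent biological replicates. The authors deposited whole-number counts of reads for each gene. Per the labels' protocols, stranded polyA libraries were made from 150 ng of total RNA with 13 cycles of PCR. STAR 2.7.10b, HTSeq 0.13.5, bcl2fastq and the build GRCm39 are named per the submitters' processing notes. The annotation release and the strand setting were not given in the sources used here. Left out were 2 stray text lines, and symbols were matched from GENCODE M21 (26534 of 27679 identifiers).

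Genes were filtered with edgeR's filterByExpr (edgeR 4.0.16, R 4.3.3), scaled by TMM and tested by quasi-likelihood with culture as the only term, adjusting over all 13845 tested genes. SE is the log2 change divided by the root of F. Ratios used counts plus 0.5. The macrophage score, used as a covariate in an alternative, is the mean centred log2 CPM of the 20 markers. Culture accounts for 81.3% of the variance of that score (inflation factor 5.36), so fits with it separate the effects poorly.

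Named were the 8 members, up to 3 passing genes per list with the smallest adjusted p, all measured light chain partners, Nfe2l2, Keap1, Bach1 and Atf4, and the 2 most alike genes of each member; symbols shared by several identifiers were left out. Members and lists were chosen with earlier results of these data known. Groups and replicate numbers came from the titles. Of 4 same-numbered pairs, deviations from the group means correlated at 0.22, 0.33, −0.134 and 0.103 across genes, so the numbers were not taken to pair libraries. The scripts were tested on simulated data. Alternatives used DESeq2 1.42.0 and limma 3.58.1, other scalings and filters, thinning to the smallest library, a replicate block and omission of libraries.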

Additional observations from a re-analysis of the deposited data

Results flagged for a closer look

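In 24 groups of 4 libraries screened (8 genes and 4 ratios in each condition), 2 held a library apart from the other 3 by Dixon's criterion at 95%, where chance marks about 1 group in 20. Gss in liquid 1 stood at 17.6 CPM, with the other liquid libraries at 12.3 to 13.2 CPM (gap over range 0.836). Gsr in the same library stood at 224.8 CPM, with the others at 205 to 208 CPM (0.858). Without liquid 1 the log2 rise of Gss was 0.70 and that of Gsr 0.27, and both were called.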

How the results depend on the processing

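Slc7a11, Slc3a2 and Gpx1 kept their direction and call in all alternatives run. Over the 8 single omissions the log2 changes ran from 2.55 to 2.74 for Slc7a11, 0.61 to 0.70 for Slc3a2, 1.45 to 1.64 for Gpx1, 0.51 to 0.70 for Gss, 0.21 to 0.27 for Gsr, 0.14 to 0.20 for Gclc, 0.04 to 0.25 for Gclm and −0.62 to −0.49 for Gpx4. Of the 8 genes, 4 to 6 were higher and 1 to 1 lower; of the listed genes, 19 to 29 were higher and 5 to 14 lower (5 without hydrogel 2 or 3, 14 without liquid 2). Gclc was called at 0.23 with library totals alone, and Gsr was not at 0.18 with upper-quartile scaling, 0.23 without a low-count filter or 0.24 at an adjusted p under 0.01. With the macrophage score as a covariate Gclm was called (1.05), Gss (0.86), Gsr (0.29) and Gpx4 (−0.03) were not, 0 of the 8 genes were lower, and 13 listed genes were higher and 2 lower. That fit called 4.89% of all tested genes. Upper-quartile scaling and the replicate block each gave 14 listed genes lower, and omission of both hydrogel 1 and liquid 2 gave 15. Of all genes tested, these settings called 30.7%, 30.6% and 40.6%. The replicate block changed no other call among the 8 genes; in it Slc7a11 had a log2 change of 2.65, and the sign-flip p of the ratios could not go below 0.125.

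The log2 ratio differences over single omissions were −0.11 to 0.11 for Gclm to Gclc, 1.94 to 2.04 for Slc7a11 to Slc3a2, −0.50 to −0.36 for Gclc to Gss and 1.96 to 2.25 for Gpx1 to Gpx4. Without 1 hydrogel library the last 3 had adjusted exact p of 0.0571 to 0.0762, because the unadjusted p of Gclc to Gss was then higher, which also raises the adjusted p of the others; without 1 liquid library all 3 stayed at 0.0381. Gclm to Gclc turned to −0.05 without hydrogel 1, −0.11 without liquid 2 and −0.19 without both. Among other genes named, with the macrophage covariate Slc7a8 turned to −0.85, Hpgds to −0.19, Alox12 to 0.44, Steap3 to −0.24, Gpx3 to −0.80, Nfe2 to 0.32, Bach1 to 1.01 and Arpc1a to 0.07. Bach1 was also above 0 with library totals alone (0.04) and without hydrogel 2 (0.01), hydrogel 4 (0.04), liquid 1 (0.03) or liquid 3 (0.09), and it was −0.16 without liquid 2. Without both hydrogel 1 and liquid 2, Slc24a5 turned to −0.07 and Abhd2 to −0.06. Of the 16 most alike genes 3 remained by Pearson correlation. The causes were not tested.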

Other observations

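Genes of lipid peroxidation and iron, which bear on the process that Gpx4 opposes, had 7 of 13 higher and 1 lower in hydrogel (edgeR), beside 15.1% and 14.1% of all tested genes, with a median log2 change of 0.27. With the macrophage term 3 were higher and 1 lower. Of the genes called in the main fit, only Ftl1 and Slc40a1, described below, were among those 3, and the 1 lower was a gene not called there. Without both hydrogel 1 and liquid 2 the counts were 8 and 1. Of all genes tested, those settings called 4.89% and 40.6%. The ferritin heavy chain gene Fth1 had 3030, 4938, 5119 and 4603 CPM in hydrogel and 1366, 1545, 1356 and 1576 CPM in liquid, a 3.03-fold rise without overlap (edgeR adjusted p = 0.000336), and with the macrophage term it was not called (0.0748). The light chain gene Ftl1 rose 1.74-fold (edgeR adjusted p = 0.00153; 0.0201 with the macrophage term). The iron exporter gene Slc40a1 rose from 21.9 ± 5.77 to 87.3 ± 19.3 CPM (edgeR adjusted p = 0.000244; 0.0331 with the macrophage term). The other genes called in this list were named after their values were seen. The ubiquinone reductase gene Aifm2 rose 4.82-fold, Steap3, an endosomal ferrireductase gene, 1.94-fold, Gch1, of tetrahydrobiopterin synthesis, 1.5-fold and the transferrin receptor gene Tfrc 1.18-fold, and the platelet lipoxygenase gene Alox12 fell 2.04-fold (edgeR adjusted p of 0.00195 to 0.0401). None of these 5 was called with the macrophage term (0.170 to 0.746). Gch1 was not called without hydrogel 2 (0.0533), and Tfrc was not without any 1 library other than liquid 2 (0.0565 to 0.122), with upper-quartile scaling (0.116) or without a low-count filter (0.0966).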
